A study of Mus musculus with 16 samples.

Results

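The genes Spi1, Spib and Spic were examined in 16 ATAC-Seq peak lists from mouse fetal liver hematopoietic progenitors, by taking every region of open chromatin within 100 kb of each gene. ATAC-Seq cuts open chromatin with a transposase and sequences the cut ends, so that open sites appear as peaks. The 49000 strongest peaks of each library were kept on chromosomes 1 to 19 and X, and overlapping peaks of different libraries were joined into regions. Of 90549 regions in all, 62 had their summit within 100 kb of the 5′ end of 1 of these genes in GENCODE M21 (mouse build mm10), of which 27 lay near Spi1, 28 near Spib and 7 near Spic. All groups were HoxB8-immortalized fetal liver progenitors grown in expansion medium with β-estradiol, incubated with a retrovirus for 3 days and sorted by flow cytometry, with 4 libraries per group. The hi-77+/+ empty group carried both copies of the Gata2 enhancer that lies 77 kb upstream of that gene and received an empty vector. The hi-77-/- empty group lacked the enhancer and received the same vector, hi-77-/- GATA2 lacked it and received GATA2, and hi-77-/- 9aa-Ins lacked it and received GATA2 with 9 amino acids inserted between its zinc fingers. Both proteins were therefore expressed from a retrovirus and not from the Gata2 locus. The labels name no separate cell lines within a genotype, so the p-values below measure the spread between libraries, and the deletion cannot be told apart from other differences between the lines.

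Spi1 encodes PU.1, an ETS family transcription factor that is needed for the formation of macrophages, granulocytes and B cells. PU.1 binds purine-rich sites with the core GGAA, and PU boxes with the core GAGGAA, together with partners such as IRF4, IRF8, RUNX1 and C/EBPα. An upstream regulatory element (URE) about 14 kb before the Spi1 start site raises its transcription in myeloid cells and is itself bound by PU.1 and RUNX1. Spib encodes Spi-B, a close relative that acts in B cells and plasmacytoid dendritic cells, and Spic encodes Spi-C, which is needed for iron-recycling macrophages of the spleen.

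Spi1 (ENSMUSG00000002111.8) occupies chr2:91082390-91115756 on the plus strand, and its main transcript starts at position 91096096. The 5′ end of the gene record belongs to a minor transcript and lies 13.7 kb upstream of that start, so it falls within the URE. Spib (ENSMUSG00000008193.13) occupies chr7:44525993-44532071 and Spic (ENSMUSG00000004359.16) chr10:88674772-88685015, both on the minus strand. Distances below are from the main start site of each gene.

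The 2 sequences below are shown because they carry differences described next: the strongest region of the URE window and the region that gained a peak farthest from Spic. Each is 300 bases of mm10, plus strand, centred on the median summit of its region. Capitals mark 3 motifs, on either strand. The ETS core is GGAA on the plus strand or, read from the other strand, TTCC, and where the PU box core is complete the capitals extend to GAGGAA or, from the other strand, TTCCTC. The GATA motif was searched as AGATAA with variants: its last base replaced gave AGATAG, its first base replaced gave TGATAA, and both replaced gave TGATAG. The RUNX motif is TGTGGT on the plus strand or, from the other strand, ACCACA.
Spi1 URE, 13.02 kb upstream, chr2:91082926-91083225: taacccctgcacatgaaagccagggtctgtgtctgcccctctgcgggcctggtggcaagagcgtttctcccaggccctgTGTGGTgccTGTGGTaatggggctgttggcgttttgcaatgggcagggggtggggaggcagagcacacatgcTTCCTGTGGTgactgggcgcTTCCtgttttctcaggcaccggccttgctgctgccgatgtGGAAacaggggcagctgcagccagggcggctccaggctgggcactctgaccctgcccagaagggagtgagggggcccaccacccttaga
Spic, 86.1 kb upstream, chr10:88769008-88769307: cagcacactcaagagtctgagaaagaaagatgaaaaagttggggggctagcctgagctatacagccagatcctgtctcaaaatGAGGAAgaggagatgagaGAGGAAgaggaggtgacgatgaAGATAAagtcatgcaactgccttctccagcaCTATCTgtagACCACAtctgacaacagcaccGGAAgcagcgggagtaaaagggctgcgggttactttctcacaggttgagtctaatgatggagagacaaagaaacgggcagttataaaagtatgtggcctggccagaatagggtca
The URE sequence held 3 ETS cores, 3 RUNX motifs and 3 E-boxes (CANNTG), and 1 of its ETS cores adjoined a RUNX motif as TTCCTGTGGT. It held no PU box core and no GATA motif in this window. The Spic sequence held 2 PU box cores and 2 GATA motifs. Among windows of this length over all 90549 regions, 37.5% held the PU box core, 96.4% the ETS core, 36.6% a GATA motif, 30.7% the RUNX motif and 79.4% an E-box, on either strand. The 62 regions near the 3 genes held them in 45.2%, 95.2%, 30.6%, 27.4% and 79.0% of windows. These counts describe letters and not bound sites.

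The lists held between 49852 and 111743 usable peaks per library. Read totals are unknown, so a peak was described by its rank in its own library, where rank 1 is the peak of highest -log10 p. The weakest peak kept had a -log10 p from 5.35 to 11.7, so an absent peak means only that none stood among the 49000 strongest. Counts of libraries in the full lists, which also hold the weaker peaks, are given for the sites whose presence is compared between groups. Chromosomes 2, 7 and 10, which carry the 3 genes, had median ranks per group from 24964 to 26740, from 22698 to 24367 and from 23782 to 24713. As markers of the labelled cell type, 5 of 7 progenitor genes (Kit, Cd34, Flt3, Ptprc, Myb) had a peak at a start site in all 16 libraries, Mpo in 15 and Hoxa9 in none. None of 4 hepatocyte, 3 endothelial and 3 T cell markers had a start site peak among the 49000 strongest in any library. Of 5 macrophage markers, Adgre1 had one in 16 libraries, Csf1r in 8, and C1qa, Vsig4 and Cd5l in none. Of the B cell markers, Pax5 had one in 16 libraries and Ms4a1 in none. Of 3 plasmacytoid dendritic cell markers, Tcf4 and Bst2 had one in 16 libraries, and Siglech in 0 of 4 hi-77+/+ empty, 4 of 4 hi-77-/- empty, 3 of 4 GATA2 and 4 of 4 9aa-Ins libraries (1, 4, 3 and 4 in the full lists). Of the erythroid markers, Klf1 had one in 16 libraries, Slc4a1 in 1 and Hbb-bt in none, and of 3 fibroblast markers Pdgfra had one in 16, Col1a1 in 15 and Col1a2 in none.

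The URE was open in every library and stood higher in the lists of hi-77-/- empty than of hi-77+/+ empty libraries. Its strongest region (chr2:91082572-91083731) lay 13.02 kb upstream of the main start, in an intron of the minor transcript. In the hi-77+/+ empty libraries its peak ranked 4218, 8766, 5536 and 6616. In the hi-77-/- empty libraries it ranked 1993, 1919, 2886 and 2802, so the groups did not overlap. With GATA2 it ranked 3712, 2945, 5276 and 6659, below every hi-77-/- empty library. With 9aa-Ins it ranked 3034, 1709, 1848 and 801, a range that included the hi-77-/- empty values and reached highest in replicate 4.

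Ranks were compared as a log2 rank score, log2(49000 / rank), in which a gain of 1 is a rank number smaller by a factor of 2. The fit was made with limma over all 21169 regions with a peak in all 16 libraries, with Benjamini-Hochberg adjustment over them. The URE score was 1.36 ± 0.36 (SE, 4 against 4 libraries) higher after the deletion (limma adjusted p = 0.00232), a rank number smaller by 2.57 times. With GATA2 it was 0.91 ± 0.36 lower than in hi-77-/- empty, which did not pass in limma (adjusted p = 0.0797), although the libraries did not overlap (exact permutation p = 0.0286, two-sided, the smallest that 4 against 4 can give). The same held 53.2 kb upstream of Spi1 (lower, limma adjusted p = 0.234) and 21.5 kb upstream of Spib (higher, limma adjusted p = 0.0898). Lack of overlap with GATA2 was thus not particular to the URE, and its share over all regions was not computed. The 9aa-Ins libraries did not overlap hi-77-/- empty either at 53.2 kb upstream and 5.48 kb downstream of Spi1. Both were lower and did not pass (limma adjusted p = 0.211 and 0.352). With 9aa-Ins the URE score was 0.50 ± 0.36 above hi-77-/- empty (limma adjusted p = 0.55, exact permutation p = 0.286). Leaving out 1 library gave differences from 0.15 to 0.79. The highest was without 9aa-Ins replicate 1, the lowest library of its group (exact permutation p = 0.0286). Only that library ranked below any hi-77-/- empty library, so its removal alone separated the groups and this p adds no support. The 9aa-Ins score exceeded the GATA2 score by 1.41 ± 0.36 (limma adjusted p = 0.00351), a rank number smaller by 2.66 times, while 1 library pair overlapped in order (exact permutation p = 0.0571). Leaving out 1 library gave 1.06 to 1.70, the highest without 9aa-Ins replicate 1 (exact permutation p = 0.0286). That library was again the only 9aa-Ins library to overlap, so this p adds no support either. The GATA2 and 9aa-Ins comparisons share the same 4 hi-77-/- empty libraries.

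The URE was also widest with 9aa-Ins and narrowest with GATA2. Cover was summed over whole peaks of regions with a median summit 13 to 15 kb upstream, parts outside that window included. It was 968 ± 45.4 bp (SD, n = 4) in hi-77+/+ empty, 1108 ± 172 bp in hi-77-/- empty, 874 ± 99.0 bp with GATA2 and 1352 ± 217 bp with 9aa-Ins. The GATA2 minus hi-77-/- empty difference was -234.5 bp and the 9aa-Ins minus GATA2 difference 477.5 bp (exact permutation p = 0.0286 in both). The deletion added 141 bp (exact permutation p = 0.2), and 9aa-Ins exceeded hi-77-/- empty by 243 bp (exact permutation p = 0.143). Within 100 kb of Spi1, peaks covered 5013 to 6480 bp in hi-77+/+ empty and 5741 to 6575 bp in hi-77-/- empty libraries. They covered 3776 to 5706 bp with GATA2 and 6160 to 8665 bp with 9aa-Ins. GATA2 thus had the least cover there too and 9aa-Ins the most, so neither was particular to the URE. The weakest peak kept had a -log10 p of 5.35 to 7.43 with GATA2 and 8.75 to 11.7 with 9aa-Ins. The other regions of the window from 13 to 15 kb upstream were weaker. The one 14.8 kb upstream held a peak in 2 of 4 hi-77+/+ empty, 4 of 4 hi-77-/- empty, 3 of 4 GATA2 and 4 of 4 9aa-Ins libraries, and the one 13.8 kb upstream, at the first exon of a minor transcript, in 0, 2, 1 and 2. In the full lists these were 3, 4, 4 and 4 libraries and 4, 4, 2 and 4 libraries.

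**Figure D1:**
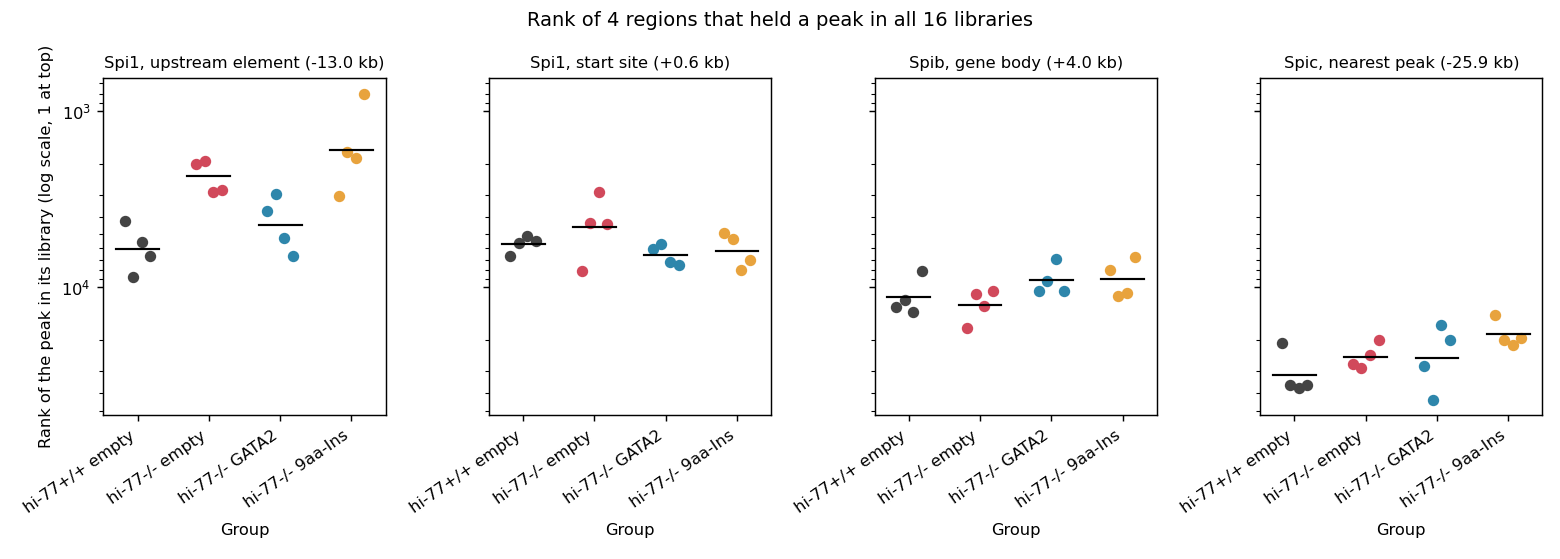
Rank of the peak (log axis, rank 1 toward the top) in each of the 16 libraries at the Spi1 URE, the Spi1 start site, the gene body of Spib and the peak nearest to Spic; points are libraries and bars are geometric means. At the URE the hi-77-/- empty libraries sit between 1919 and 2886, above all hi-77+/+ empty and all GATA2 libraries, while the other 3 panels show overlapping groups except where stated in the text.

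The start site of Spi1 was open in every library, with less difference between groups than the URE. The region 0.6 kb into the gene (chr2:91096259-91097608), which spans the first coding exon, ranked from 5109 to 6629 in hi-77+/+ empty, from 2887 to 8122 in hi-77-/- empty, from 5695 to 7492 with GATA2 and from 4954 to 7943 with 9aa-Ins. All groups overlapped, and the limma difference was 0.31 ± 0.28 after the deletion (adjusted p = 0.397), -0.52 ± 0.28 with GATA2 (adjusted p = 0.233), -0.43 ± 0.28 with 9aa-Ins (adjusted p = 0.498) and 0.08 ± 0.28 between both proteins (adjusted p = 0.885). Among 9900 protein-coding genes far from Spi1 whose start site was open in all libraries, those whose log2 rank followed it most closely over the 16 libraries were Msantd2 (Pearson r = 0.751), Lrrc24 (0.716) and C030006K11Rik (0.716). The r values are the highest of many, and the points share groups and libraries, so they are a description.

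Inside the Spi1 locus, GATA2 and 9aa-Ins each opened a site 6.9 kb upstream of the main start, in an intron of the minor transcript. None of the 8 empty vector libraries had a peak there among the 49000 strongest, and all 8 libraries that received GATA2 or 9aa-Ins had one. Its ranks were low, at 38047, 31088, 23626 and 40567 with GATA2 and 40476, 34529, 23016 and 37025 with 9aa-Ins. In the full lists a weaker peak was present in 3 of 4 hi-77+/+ empty and 2 of 4 hi-77-/- empty libraries, while the other 3 empty vector libraries had none at any depth deposited. A site 17.4 kb downstream of the start (chr2:91113329-91113768), at a coding exon of Spi1, was opened by 9aa-Ins. It held a peak among the 49000 strongest in no empty vector library, in 3 of 4 GATA2 libraries and in 4 of 4 9aa-Ins libraries, with ranks from 25911 to 43103, and in the full lists in 2, 2, 3 and 4 libraries of the 4 groups.

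Counted over the 3 genes, 2 of 62 regions were opened by GATA2 (a peak in 4 of 4 against 0 of 4 libraries) and 1 was closed, against 1.73% and 2.23% of all 90549 regions. With 9aa-Ins, 2 were opened and none closed, against 1.35% and 0.171%. The deletion opened none and closed 1, against 3.59% and 2.11%. Between 9aa-Ins and GATA2, 1 was opened and 1 closed, against 2.97% and 1.47%. With so few called, these shares do not set the 3 genes apart from other regions.

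Other Spi1 sites showed partial changes of presence. The site 17.4 kb upstream (outside the gene) had weak peaks in 2 of 4 hi-77+/+ empty libraries, at ranks 44933 and 44134, and peaks in all 12 hi-77-/- libraries, at ranks from 16633 to 38060. The site 11.4 kb upstream was present in 1 of 4 hi-77+/+ empty, 4 of 4 hi-77-/- empty, 2 of 4 GATA2 and 4 of 4 9aa-Ins libraries. The site 40.7 kb downstream, outside genes and near Madd, was present in 2, 4, 1 and 4 of 4. In the full lists the 3 sites had a peak in 4, 4, 4 and 4 libraries, in 3, 4, 3 and 4 and in 3, 4, 1 and 4. Other sites went the opposite way after the deletion. The site 34.8 kb upstream was present in 3, 1, 0 and 0 libraries (4, 1, 0 and 3 in the full lists), the site 31.7 kb upstream in 2, 0, 0 and 0 (3, 0, 0 and 0) and the site 30.4 kb upstream in 4, 2, 4 and 2 (4, 3, 4 and 3). The site 19.1 kb downstream was present in 4, 3, 1 and 3 libraries (4, 4, 2 and 4). None of these sites reached the 4 against 0 rule.

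**Figure D2:**
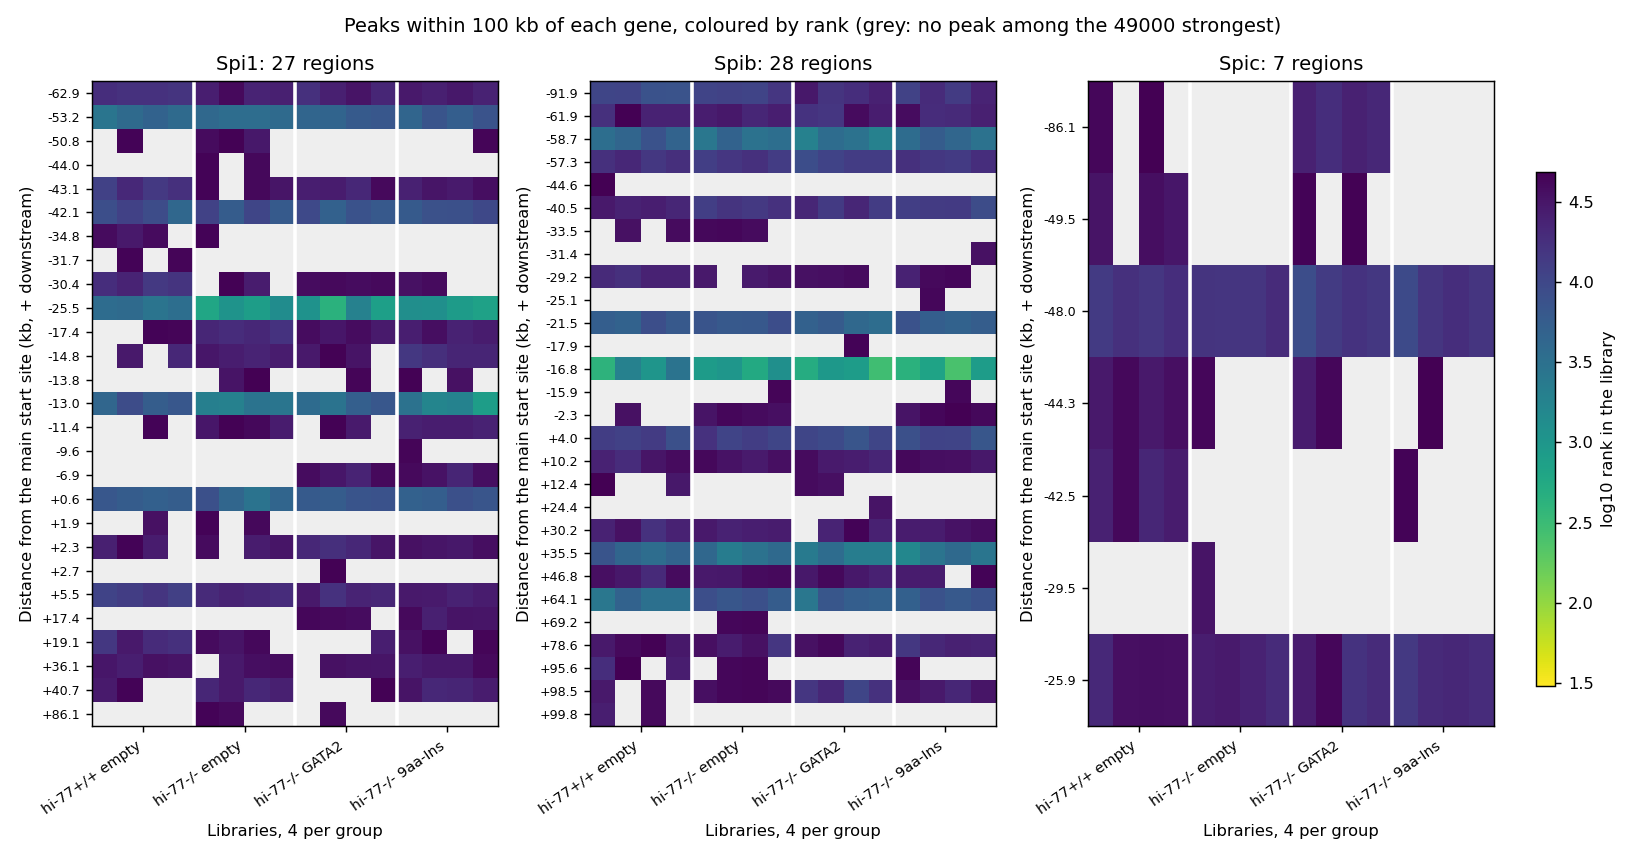
Map of the 62 regions near Spi1, Spib and Spic, as rows ordered by distance from the main start site in kb, against the 16 libraries as columns, 4 per group. Colour gives the log10 rank of the peak and grey marks no peak among the 49000 strongest. The row 6.9 kb upstream of Spi1 is filled only in the GATA2 and 9aa-Ins columns, and Spic has no row within 25 kb of its start.

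In the rank fit, 6 of the 21 regions near the 3 genes with a peak in all libraries passed for the deletion, 3 in each direction (14.3% each). Across all 21169 regions 21.1% were higher and 21.2% lower, and near Spi1 alone 2 of 7 were called in each direction (28.6%), so with these few calls the shares do not set the 3 genes apart. The median difference was 0.0031 near the 3 genes and 0.00374 over all regions. The region with the largest difference lay 25.5 kb upstream of Spi1, at the start site of the neighbour Slc39a13, which encodes a zinc transporter. It ranked 3557, 3816, 2865 and 3425 in hi-77+/+ empty libraries and 608, 1087, 797 and 1324 in hi-77-/- empty libraries (1.89 ± 0.41, limma adjusted p = 0.000262). It stayed near that level with GATA2 (438 to 1884) and 9aa-Ins (713 to 1269), with differences of -0.00 ± 0.41 and -0.11 ± 0.41 from hi-77-/- empty.

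Within Spi1 itself, an intronic region 5.5 kb downstream of the start was lower after the deletion. It ranked 10966, 12724, 15647 and 12048 in hi-77+/+ empty libraries and 20538, 23353, 21563 and 19385 in hi-77-/- empty libraries (-0.73 ± 0.20, limma adjusted p = 0.00306), and from 16881 to 29482 in the 8 GATA2 and 9aa-Ins libraries. The window of this region held 3 GATA motifs and no PU box core. A region 62.9 kb upstream, outside genes and near Rapsn, was also lower (-0.74 ± 0.22, limma adjusted p = 0.0057). It ranked from 15927 to 18343 in hi-77+/+ empty and from 23372 to 41058 in hi-77-/- empty libraries. After the deletion the URE and the site 5.5 kb into Spi1 thus moved in opposite directions.

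GATA2 moved 1 of the 21 regions past the threshold, downward (4.76%, against 9.84% of all regions lower and 7.04% higher), and 9aa-Ins moved none (2.72% of all regions were higher and 1.71% lower). Between 9aa-Ins and GATA2 only the URE passed (4.76% higher, against 11.7% of all regions higher and 7.33% lower). The median differences near the 3 genes were 0.21, 0.09 and -0.12 in these comparisons, against 0.06, -0.01 and -0.05 over all regions.

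**Figure D3:**
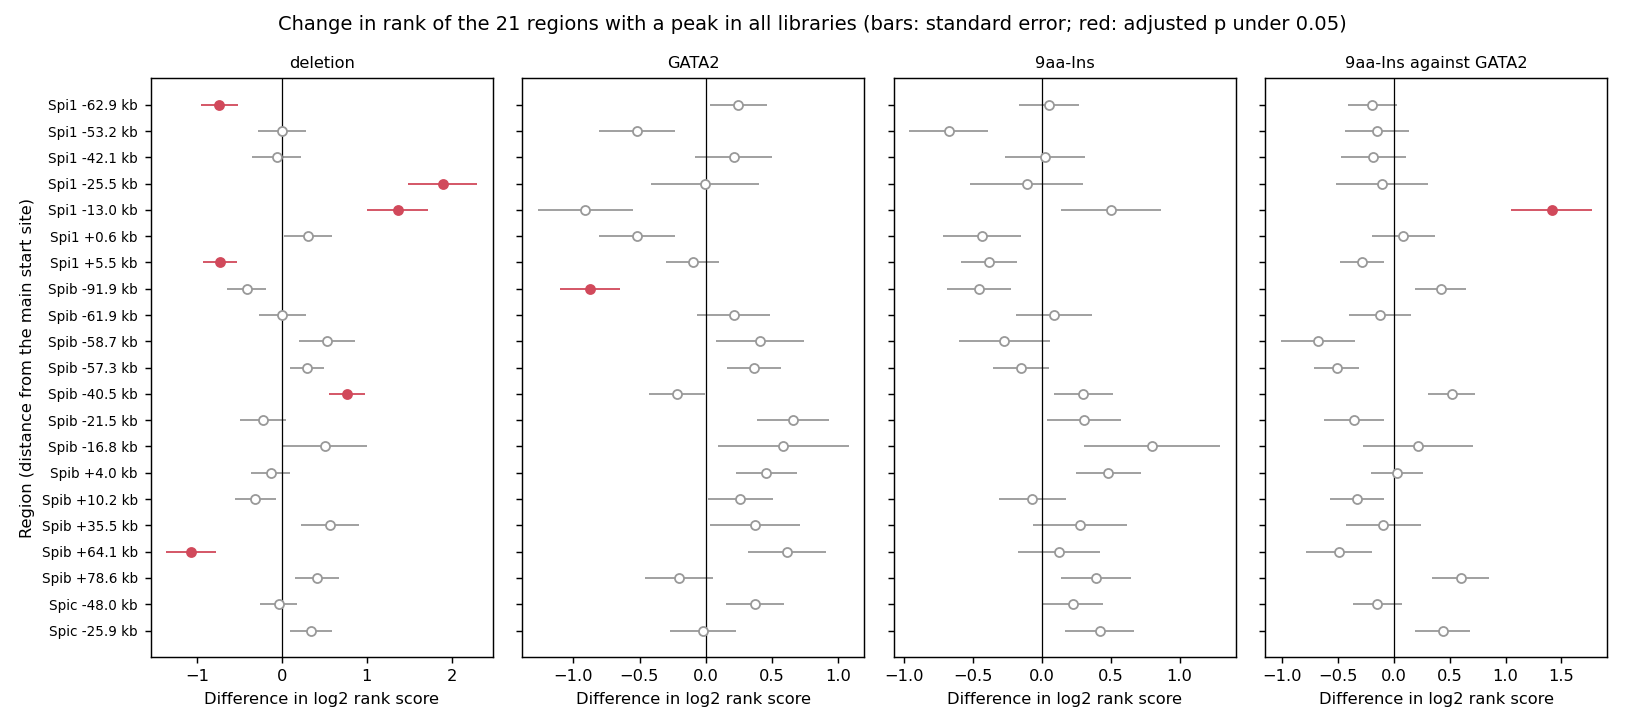
Difference in log2 rank score with its standard error for the 21 regions near Spi1, Spib and Spic with a peak in all 16 libraries, 1 panel per comparison (first group minus second, positive means nearer the top of the list). Filled red points passed an adjusted p of 0.05 in limma: 6 for the deletion, 1 for GATA2, none for 9aa-Ins and the Spi1 URE alone between 9aa-Ins and GATA2.

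Spib, the B cell and plasmacytoid dendritic cell member, had no peak among the 49000 strongest within 1 kb of its start site in any library. The nearest region open in every library lay 4.0 kb downstream, at a coding exon of Spib. It ranked from 8048 to 13737 in hi-77+/+ empty, from 10453 to 17004 in hi-77-/- empty, from 6888 to 10484 with GATA2 and from 6767 to 11168 with 9aa-Ins. These differences did not pass in limma (-0.14 ± 0.23 after the deletion, 0.46 ± 0.23 with GATA2 and 0.48 ± 0.23 with 9aa-Ins, adjusted p = 0.668, 0.192 and 0.294).

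A weak site 2.3 kb upstream of Spib, in a coding exon of the neighbour Pold1 (a DNA polymerase subunit), was closed by GATA2 and not by 9aa-Ins. Its ranks were 32772, 42754, 38897 and 36321 in hi-77-/- empty libraries and 33648, 43633, 47934 and 41287 with 9aa-Ins. No GATA2 library had a peak there among the 49000 strongest, and 1 of 4 hi-77+/+ empty libraries had one, at rank 34845. The full lists held a peak in 2, 4, 1 and 4 libraries of hi-77+/+ empty, hi-77-/- empty, GATA2 and 9aa-Ins. The lists of GATA2 replicates 1 and 3 are the shortest of the series, at 49852 and 53743 peaks.

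The other Spib regions that passed in limma lay at or in neighbouring genes. At the start site of Josd2, 64.1 kb downstream, the rank fell after the deletion, from values of 2622 to 4816 to values of 5705 to 8300 (-1.07 ± 0.30, limma adjusted p = 0.0033). At the start site of Napsa, 40.5 kb upstream, it rose from values of 21979 to 29355 to values of 12342 to 16878 (0.76 ± 0.21, limma adjusted p = 0.00339). At a coding exon of Myh14, 91.9 kb upstream, it fell with GATA2, from values of 10598 to 15333 to values of 16104 to 30642 (-0.87 ± 0.23, limma adjusted p = 0.00524). In each of these 3 the groups did not overlap, which adds no support, since limma on the same ranks picked them. The share of such regions over all regions was not computed. Of the 28 Spib regions, 12 held a peak in all libraries and 10 lay within 1 kb of a start site of some protein-coding gene.

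Spic, the iron-recycling macrophage member, had no peak among the 49000 strongest within 25 kb of its start in any library. The nearest, 25.9 kb upstream and outside genes, ranked from 20686 to 37070 in hi-77+/+ empty, from 19864 to 28577 in hi-77-/- empty, from 16428 to 43555 with GATA2 and from 14320 to 21319 with 9aa-Ins, with no difference that passed in limma (adjusted p from 0.241 to 0.975 over the 4 comparisons). The only other region in all libraries was the start site of Arl1, 48.0 kb upstream, which also passed in no comparison.

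A site 86.1 kb upstream of Spic, in an intron of Utp20 (chr10:88768988-88769390), was opened by GATA2 and not by 9aa-Ins. It ranked 24803, 18840, 24792 and 21470 in the GATA2 libraries, was absent from the hi-77-/- empty and 9aa-Ins lists at this depth, and had weak peaks in 2 of 4 hi-77+/+ empty libraries, at ranks 42901 and 48538. The full lists held a peak there in 4 of 4 hi-77+/+ empty, 3 of 4 hi-77-/- empty, 4 of 4 GATA2 and 4 of 4 9aa-Ins libraries, so it was stronger with GATA2 and not particular to it. A site 42.5 kb upstream (chr10:88725456-88725641) was closed by the deletion. It ranked 24740, 41677, 22374 and 27906 in hi-77+/+ empty libraries and had no peak in hi-77-/- empty or GATA2 libraries, and 1 of 4 9aa-Ins libraries had one at rank 45519. In the full lists it was present in 4, 1, 1 and 2 libraries. Its neighbours 44.3 kb and 49.5 kb upstream showed 4, 1, 2 and 1, and 3, 0, 2 and 0 libraries with a peak, and 4, 1, 3 and 3, and 4, 1, 3 and 1 in the full lists.

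The number of peaks within 100 kb described the whole neighbourhood of each gene. Averaged over the libraries, Spi1 had 17.9 peaks and Spib 19, more than 86.4% and 88.3% of 21755 protein-coding genes, while Spic had 4.38, more than 35.6%. The median gene had 7.06. Spi1 had 16.25 ± 2.06 peaks (SD, n = 4) in hi-77+/+ empty, 19 ± 2.71 in hi-77-/- empty, 18.25 ± 2.87 with GATA2 and 18.25 ± 1.26 with 9aa-Ins, and its groups overlapped in all comparisons. In the same order Spib had 20 ± 0.816, 20.25 ± 0.5, 18 ± 0.816 and 17.75 ± 0.957. Its numbers were lower with GATA2 and with 9aa-Ins than in hi-77-/- empty without overlap (exact permutation p = 0.0286 in both, adjusted p over all genes = 0.302 and 0.623). This direction depended on the list: with 0.5 of the peaks the difference was 1 with each protein, and with all deposited peaks it was -3.25 with GATA2 and 5 with 9aa-Ins. Spic had 6.25 ± 0.957, 3.25 ± 1.26, 5.0 ± 0.816 and 3.0 ± 0.816, and the groups overlapped after the deletion (exact permutation p = 0.0571, adjusted p over all genes = 0.24) and between the proteins (exact permutation p = 0.0571, adjusted p over all genes = 0.356). Of all genes with a peak in the window, 19% did not overlap after the deletion, 9.47% with GATA2, 4.59% with 9aa-Ins and 11.9% between the proteins.

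**Figure D4:**
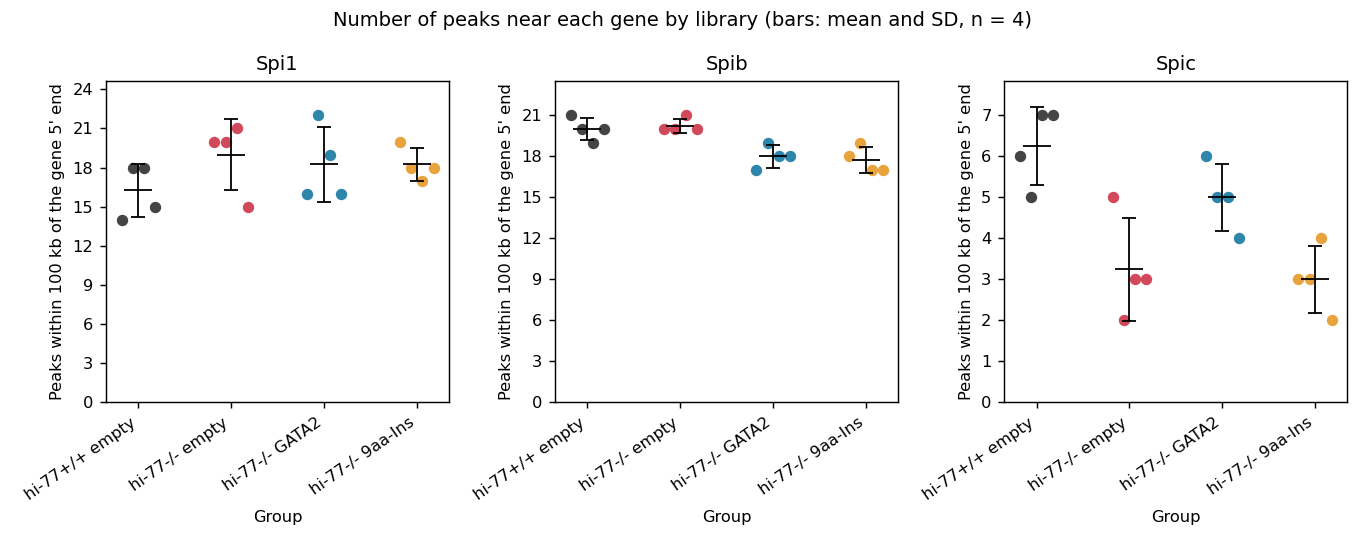
Number of peaks within 100 kb of the 5′ end of Spi1, Spib and Spic in each library, by group, with the mean and SD (n = 4). The Spib counts with GATA2 (17 to 19) and 9aa-Ins (17 to 19) lie below those of hi-77-/- empty (20 to 21) in this list of 49000 peaks, a direction that turned with 0.5 of the peaks and, for 9aa-Ins, with all peaks, and Spic had 5 to 7 peaks in hi-77+/+ empty and 2 to 5 in hi-77-/- empty.

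For comparison, the other 23 ETS family genes were mostly open at their start sites whatever the group. Of these, 15 had a start site peak in all 16 libraries, 5 in some and 3 (Ehf, Etv1, Spdef) in none. Erg, a stem cell ETS factor, had no start site peak among the 49000 strongest in hi-77+/+ empty libraries and one in all 12 hi-77-/- libraries, while the full lists held one in all 16. In limma the deletion raised 1 of 15 start sites (Elk4, 0.86, adjusted p = 0.0303) and lowered 2 (Elk1, -2.22, adjusted p = 1.77e-09, and Elf1, -0.97, adjusted p = 0.019), against 21.1% and 21.2% of all regions, so 3 of 15 does not set the family apart. No other comparison moved any.

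Among 13 partners and regulators of PU.1, 10 had a start site peak in all libraries. The deletion raised Cebpa (1.37, limma adjusted p = 0.0167), a myeloid partner, and Myb (0.88, limma adjusted p = 0.00554), and lowered Irf8 (-0.48, limma adjusted p = 0.047). These 2 and 1 of 10 stand against the same 21.1% and 21.2% of all regions and do not set the partners apart. GATA2 and 9aa-Ins moved none of the 10. Gata1, a GATA factor that opposes PU.1, had a start site peak in 0 of 4 hi-77+/+ empty, 1 of 4 hi-77-/- empty, 4 of 4 GATA2 and 0 of 4 9aa-Ins libraries, and in 4, 4, 4 and 3 libraries of the full lists. Irf4 had one in 4, 1, 2 and 4 libraries (4, 3, 3 and 4 in the full lists).

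Of 12 genes known as targets of PU.1 family factors, 3 had a start site peak in all libraries (Csf2ra, Fcgr1 and Hmox1), 6 in some and 3 in none (Pou2af1, Slc40a1, Vcam1). Csf1r, the receptor for macrophage colony-stimulating factor, had a start site peak in 0 of 4 hi-77+/+ empty, 4 of 4 hi-77-/- empty, 0 of 4 GATA2 and 4 of 4 9aa-Ins libraries. Cd79a, a B cell receptor subunit, had one in 3, 4, 0 and 4 libraries, and Csf3r, the granulocyte colony-stimulating factor receptor, in 1, 1, 0 and 4. In the full lists a start site peak was present in 2, 4, 1 and 4 libraries for Csf1r, in 4, 4, 1 and 4 for Cd79a and in 3, 2, 1 and 4 for Csf3r. By the 4 against 0 rule the deletion opened 1 of the 12 start sites (Csf1r) and 1 of the 23 other ETS genes (Erg), against 1.1% of 12864 protein-coding genes with a start site peak. The 12 and the 23 each include 3 genes without such a peak, so the bases of these shares differ. GATA2 closed 2 of 12 (Csf1r and Cd79a), against 0.428%. The start sites of Csf1r, Csf3r and Cd79a (3 of 12) had a peak among the 49000 strongest in all 9aa-Ins and no GATA2 libraries, against 0.583%, and Gata1 (1 of 13) was the reverse, against 0.233%. The lists were chosen with earlier results of these data known. These counts therefore cannot show whether targets or partners as a class differ from other genes. In limma, of 3 target start sites tested, the deletion raised Fcgr1 (0.74, adjusted p = 0.00494) and lowered Hmox1 (-2.01, adjusted p = 4.97e-08), a heme oxygenase of iron-recycling macrophages. Csf1r is also a macrophage marker and was present in the groups where the URE ranked highest, hi-77-/- empty and 9aa-Ins. Cd79a was also present in 3 of 4 hi-77+/+ empty libraries, and Csf3r in only 1 of 4 hi-77-/- empty libraries. A link of these start sites to the URE was not tested. Of the other macrophage markers, C1qa, Vsig4 and Cd5l had no start site peak in any group, and Adgre1 rose with 9aa-Ins (0.96, limma adjusted p = 0.0109) and not after the deletion (-0.26, limma adjusted p = 0.378). The B cell marker Pax5 rose after the deletion (3.10, limma adjusted p = 5.68e-10) and differed little with GATA2 (-0.04, limma adjusted p = 0.957), and its part in the Spi1 and Spib values was not tested.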

How the data were processed

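ATAC-Seq was performed in 16 libraries of 4 groups. Per the submitters' processing notes, the authors used Trim Galore 0.4.1, Bowtie2 2.2.5 with build mm10, Picard 2.26.0 and MACS2, whose version is not given in the sources used here. Peaks were called in each library. As deposited, each peak has a whole-number score set from its q, a fold enrichment over the library background (a ratio), and a -log10 p and -log10 q. The lists give no read totals, so depth is unknown and no counting interval is given.

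The 49000 peaks of highest -log10 p per library (ties by fold enrichment, then position) on chromosomes 1 to 19 and X were ranked and joined into regions where they overlapped by at least 1 bp. Ranks were fitted with limma 3.58.1 (trend, R 4.3.3), tested on simulated data, in place of a count test, since lists hold no counts. Exact permutation tests were two-sided. Named regions were those at a start site, in the URE window, opened or closed, or under an adjusted p of 0.05. The members and lists were chosen with earlier results of these data known. Replicate numbers were not treated as pairs. Sequences were read from the RefSeq copy of the mm10 assembly. Some items of the marker lists and some sequences are not reported here.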

Additional observations from a re-analysis of the deposited data

Results flagged for a closer look

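In hi-77-/- empty libraries, replicate 4 had 15 peaks within 100 kb of Spi1 where the others had 20, 20 and 21, so that the gap below them took 0.833 of the range. For Spib in the same group replicate 3 had 21 peaks and the others 20 each, a gap of 1.0 of a range of 1 peak. Of 44 such checks, 2 exceeded Dixon's limit for 4 libraries. Chance gives about 1 in 20 for continuous values, and that rate need not hold for small whole-number counts with ties such as these. The URE was the one region near the 3 genes whose change with 9aa-Ins exceeded that with GATA2 past the threshold, by 1.41 in log2 rank score (limma adjusted p = 0.00351).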

How the results depend on the processing

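The 7 regions called in the rank fit, 1 of them in 2 comparisons, kept their direction and their side of the threshold under every alternative in which they could be fitted, each left-out library included. A region without a peak in some library could not be fitted, which held for 4 of the 7 with 0.5 of the 49000 peaks per library, for 6 with peaks that cover 50% of the region, and for 2 with peaks narrower than 1 kb. With 0.5 of the peaks the count of called regions near the 3 genes was 3 for the deletion and 0 for GATA2, and with 50% cover 1 for the deletion, 0 for GATA2 and 0 for 9aa-Ins against GATA2. With all deposited peaks it was 4 for GATA2 and 2 for 9aa-Ins against GATA2, and with peaks narrower than 1 kb 2 for the latter. Leaving out a library gave 6 for the deletion, 1 to 2 for GATA2 (2 without GATA2 replicate 2), 0 for 9aa-Ins and 1 to 2 for 9aa-Ins against GATA2 (2 without GATA2 replicate 4).

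Opened and closed regions were few and depended on the peaks kept. For the deletion the count was 1, but 4 with 0.5 of the peaks, 0 with all peaks, 2 above a stricter q (-log10 of 5), 2 with peaks narrower than 1 kb and 4 with 50% cover. For GATA2 it was 3, but 1 with all peaks and 1 with 50% cover. For 9aa-Ins it was 2, but 0 with 0.5 of the peaks and 0 with 50% cover. For 9aa-Ins against GATA2 it was 2, but 1 with 0.5 of the peaks, 4 at the stricter q and 4 with 50% cover. Leaving out a library gave 1 to 3 for the deletion (3 without hi-77+/+ empty replicate 2, 2 without hi-77+/+ empty replicate 3 or hi-77-/- empty replicate 1), 3 to 5 for GATA2 (5 without hi-77-/- empty replicate 4 or GATA2 replicate 4), 2 to 3 for 9aa-Ins and 2 to 3 for 9aa-Ins against GATA2.

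The rank of the URE after the deletion passed under all alternatives that gave a value, with a difference of 1.19 to 1.54 when a library was left out. For GATA2 it was -0.92 by rank within the chromosome, where the groups overlapped (exact permutation p = 0.0857), and -1.10 to -0.71 without a library. Without any 1 hi-77-/- empty library the groups still did not overlap, but they were of unequal size (exact permutation p = 0.0571). For 9aa-Ins the difference was 0.15 to 0.79 without a library and for 9aa-Ins against GATA2 1.06 to 1.70, the upper value of both without 9aa-Ins replicate 1. Peaks narrower than 1 kb and 50% cover gave no URE value. Giving tied peaks their mean rank, an alternative chosen after seeing the data, changed no call of the URE or of the 7 regions.

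In a fit with the replicate number as a block the counts of called regions were 6, 1, 0 and 1 and the URE differences 1.36, -0.91, 0.50 and 1.41, with the same calls. Same-numbered libraries correlated between -0.06 and 0.11 in their deviations, and no comparison had over 1 of 4 numbers matching best. No pairing was seen, but this check cannot exclude shared batches.

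Peak numbers changed direction with the list. With 0.5 of the peaks the difference was -2 for Spi1, -3 for Spib (exact permutation p = 0.0286) and 0.25 for Spic after the deletion, 1 for Spib with GATA2, and 1 for Spib and 0.25 for Spic with 9aa-Ins. With all peaks it was -6.25, -5 and -4 for Spi1, Spib and Spic after the deletion, -3.25 for Spib with GATA2, 2.5, 5 and 2 with 9aa-Ins, and 8.25 for Spib and 0.5 for Spic between the proteins. Above the stricter q it was -3.75 for Spic after the deletion, 2.25, 0 and 0.5 for Spi1, Spib and Spic with 9aa-Ins, and 3.75 for Spib between the proteins. With peaks narrower than 1 kb it was 0.5 for Spi1 and -1.25 for Spib with GATA2, and -3 for Spib with 9aa-Ins. Within 50 kb it was -0.25 for Spib after the deletion, 0.25 for Spi1 and -1.5 for Spib with GATA2, and -1.5 for Spib with 9aa-Ins. Without a library, the range for Spib was -0.0833 to 0.58 after the deletion (below 0 without hi-77+/+ empty replicate 3), -2.58 to -1.92 with GATA2, -2.92 to -2.25 with 9aa-Ins and -0.67 to 0.0833 between the proteins (above 0 without GATA2 replicate 2). For Spic it was -3.58 to -2.58 after the deletion (exact permutation p = 0.0286 without hi-77-/- empty replicate 1) and -0.67 to 0.33 with 9aa-Ins. The cause was not tested. Read depth, which the lists do not give, limits all of these counts.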
